A study of Mus musculus with 7 samples.

Results

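The 9 genes described here carry iron across the membranes of the cell: the transferrin receptors Tfrc and Tfr2, the endosomal reductase Steap3, the importers Slc11a2, Slc39a14 and Slc39a8, the exporter Slc40a1 and the mitochondrial carriers Slc25a37 and Slc25a28. They were chosen by name for their role, and each symbol matched 1 row of the deposited table of 55855 gene identifiers. All 9 were among the 13948 genes with a mean of at least 1 FPKM (fragments scaled to the length of the gene and to the counted reads of the library) over the libraries, which were the genes tested. RNA came from hematopoietic stem cells (HSCs) of mouse bone marrow at an age of 2 months. The control group was Fth1fl/fl (n = 3 libraries), with Fth1 flanked by sites for deletion, and the other group was Fth1△/△ (n = 4 libraries, called Fth1-deleted here), with Fth1, the ferritin heavy chain, removed in blood-forming cells. The driver of the deletion, the sorting markers and the sex of the mice are not given in the sources used here. Nothing in the labels ties a library to a separate mouse, so p-values measure the spread between libraries.

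Counted reads, read back from the steps in the FPKM values, numbered 12058392 to 15453168 per library. Fth1 was at 552 to 659 FPKM in control and 114 to 358 in Fth1-deleted libraries, 40.8% of control on average; which exons were removed is not given. All 12 genes of the HSC marker list had a mean of 1 FPKM or more in both groups, but their levels were not alike. The log2 difference, Fth1-deleted minus control, was negative for 8 and positive for 4 of them, with a median of -0.48. Markers of other blood cells were present as well, and more of them reached that level in the Fth1-deleted group. In control and Fth1-deleted libraries these were 10 and 11 of 12 erythroid, 8 and 10 of 12 macrophage and 6 and 6 of 7 megakaryocyte markers. For neutrophil progenitors they were 7 and 11 of 11, for B cells 3 and 7 of 8 and for mast cells and basophils 2 and 4 of 6. The median log2 difference of the tested markers was 2.21 for neutrophil progenitors, 1.41 for B cells and 1.39 for mast cells and basophils. It was 1.36 for macrophages, 0.35 for erythroid cells and 0.14 for megakaryocytes. None of the genes on these lists of other blood cells passed the test described below, and their part in the members' levels was not tested. Libraries also differed within groups. The share of summed FPKM from ribosomal RNA genes was 0.0366% and 0.0145% in control 1 and 3, 1.05% in control 2, and 1.19% to 1.36% in Fth1-deleted libraries. Y-linked genes were at 0 in control 1, control 3 and Fth1-deleted 4 and were detected in the other 4 libraries. Fewer cells of a type and less RNA per cell cannot be told apart in such bulk samples.

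Iron bound to transferrin enters cells through transferrin receptor 1, is reduced in the endosome by STEAP3 and leaves it through the transporter DMT1, the product of Slc11a2. ZIP14 and ZIP8, the products of Slc39a14 and Slc39a8, carry iron that is not bound to transferrin, along with zinc and manganese. Ferroportin, from Slc40a1, exports iron, and the mitoferrins, from Slc25a37 and Slc25a28, bring it into mitochondria for heme and iron-sulfur clusters. When iron is scarce, iron regulatory proteins bind hairpins called iron-responsive elements. Binding in the 3′ untranslated region (UTR) protects Tfrc RNA from decay, and binding in the 5′ UTR blocks translation of Slc40a1 and the ferritin chains.

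Because these hairpins tie Tfrc RNA and the translation of Slc40a1 to cellular iron, annotated UTRs were searched for them. The pattern was C, any 5 bases, CAGTGN and 5 bases that can pair with the 5 before CAGTGN, G-U pairs allowed. Only the sense strand was searched, since the element works as RNA. Of 21901 protein-coding genes, 0.731% held a match in a UTR. Among the members, 5 matches were found in 2 genes, 4 in the 3′ UTR of Tfrc and 1 in the 5′ UTR of Slc40a1. With 1 of the 5 pairs allowed to be open, a rule met by 4.9% of genes, a sixth element was found in the 3′ UTR of Slc11a2. The sequences are from GENCODE release M21 transcripts (GRCm38), 5′ to 3′, written as DNA. Capitals mark the bulged C and the 6-base loop. The ferritin elements are shown for comparison.
Tfrc element a, chr16:32631219-32631247, plus strand, 3′ UTR, last exon: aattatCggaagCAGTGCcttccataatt
Tfrc element b, chr16:32631598-32631626, plus strand, 3′ UTR, last exon: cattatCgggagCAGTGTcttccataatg
Tfrc element c, chr16:32631663-32631691, plus strand, 3′ UTR, last exon: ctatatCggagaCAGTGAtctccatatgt
Tfrc element d, chr16:32631710-32631738, plus strand, 3′ UTR, last exon: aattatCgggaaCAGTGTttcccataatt
Slc40a1, chr1:45925465-45925493, minus strand, 5′ UTR, exon 1: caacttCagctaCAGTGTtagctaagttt
Slc11a2, chr15:100395153-100395181, minus strand, 3′ UTR, last exon of the transcript that has it: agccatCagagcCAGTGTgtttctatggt
Fth1, chr19:9982732-9982760, plus strand, 5′ UTR: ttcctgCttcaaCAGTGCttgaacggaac
Ftl1, chr7:45459779-45459807, minus strand, 5′ UTR: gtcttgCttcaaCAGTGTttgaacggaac
Tfrc elements a, c and d have 5 Watson-Crick pairs of 5 beside the loop, and element b has 4 and a G-U pair. The Slc40a1 element and both ferritin elements have 5 of 5. No match says only that these letters were not found in the annotated UTRs of the other members. A gene-level value cannot separate Slc11a2 transcripts with the element from those without it.

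None of the 9 members passed the test of Fth1-deleted against control libraries. Over all tested genes 8 passed, which is 0.0574% (limma on log2(FPKM + 1), Benjamini-Hochberg adjusted p under 0.05), so a count of 0 among 9 is near the background. In each direction 0.0287% of tested genes passed. At an unadjusted limma p under 0.05 the count was also 0 of 9 members, where it was 1371 of all 13948 tested genes. For no member did the 2 groups separate without overlap, where 9.65% of all tested genes did so, 4.1% with the higher values in Fth1-deleted and 5.55% with the lower. The log2 difference, Fth1-deleted minus control, was positive for 7 of 9 members with a median of 0.20, and positive for 48.7% of all tested genes with a median of -0.02. The values of the members ran from -0.30 to 0.61 with adjusted p of 0.628 to 0.975. Every 95% interval included no change and was wide. As a fold, Fth1-deleted over control, the narrowest ran from 0.589 to 1.11 for Tfr2 and that of Slc39a8 ran from 0.399 to 2.82.

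**Figure D1:**
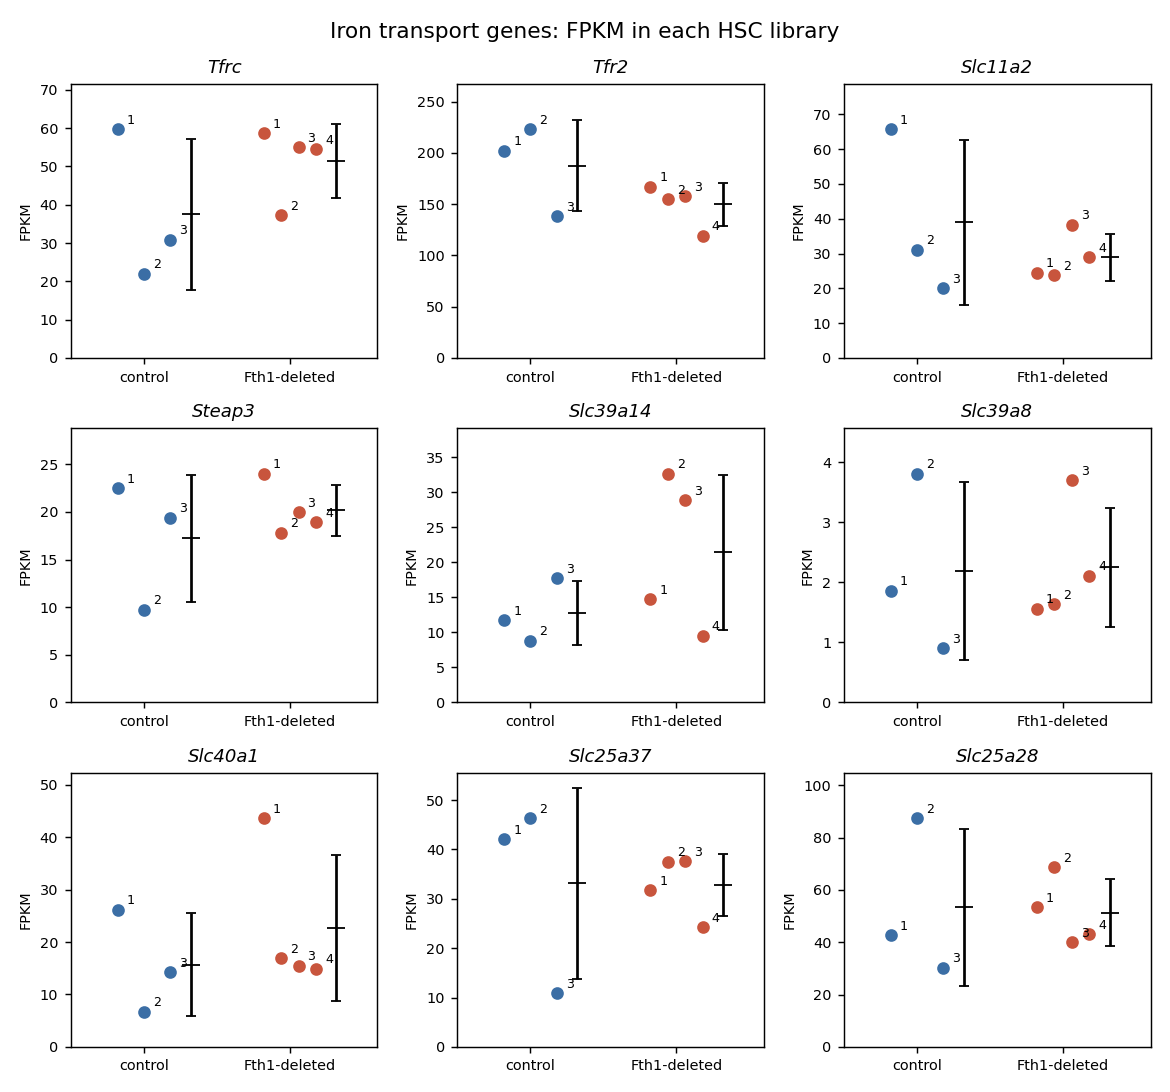
FPKM (y axis) of each of the 9 genes in the 3 control libraries (blue) and the 4 Fth1-deleted libraries (red), with the replicate number beside each point and the mean and SD at the right of each group. The groups overlap for every gene, and control 2 is the lowest library for 4 genes and the highest for 4 others.

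Tfrc (chromosome 16, 32608920 to 32632794, plus strand; GRCm38 here and for all members) encodes transferrin receptor 1, the main entry for transferrin iron. Its FPKM was 59.7, 22 and 30.9 in control 1 to 3 and 58.7, 37.2, 55.1 and 54.5 in Fth1-deleted 1 to 4. All 4 Fth1-deleted libraries lay above the middle control library, but control 1 was the highest of all 7. Between the groups this gave a log2 difference of 0.54 (SE 0.33; 95% interval -0.18 to 1.26; limma adjusted p = 0.628), with means of 37.5 ± 19.7 and 51.4 ± 9.62 FPKM (SD, n = 3 and 4). Without control 1 the difference was 0.93 and without control 2 it was 0.23. The gene was worth 592 to 1625 reads per library, for which counting alone gives a coefficient of variation (CV, the SD as a share of the mean) of 2.96%. The CV between the control libraries was 52.6%.

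Dividing cells raise their transferrin receptor, and the cell division list was read beside Tfrc for that reason. Its 16 genes summed to 1727, 983 and 1226 FPKM in control 1 to 3 and 1697 to 1903 in Fth1-deleted libraries, and none of them was at 0 in all libraries of a group. All 16 had a positive log2 difference with a median of 0.52, and none passed the test. Control 1 had a sum within the Fth1-deleted range and a Tfrc level above it, and control 2 and 3 were the lowest libraries for both. Their part in the level of Tfrc was not tested.

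Tfr2 (chromosome 5, 137569840 to 137587481, plus strand) encodes transferrin receptor 2, which binds transferrin more weakly, acts as an iron sensor in liver and partners with the erythropoietin receptor in red cell precursors. It had the highest FPKM of the 9 in each of the 7 libraries, at 202, 223 and 138 in control and 167, 155, 158 and 119 in the Fth1-deleted group. Control 1 and 2 lay above every Fth1-deleted library, and control 3 lay among them. On the log2 scale the groups differed by -0.30 (SE 0.21; 95% interval -0.76 to 0.15; limma adjusted p = 0.669), with means of 188 ± 44.5 and 149.8 ± 21 FPKM. It was -0.51 without control 3 and -0.17 without control 2. Epor, the gene of that receptor, was at 34.3 ± 20.2 and 56.7 ± 6.05 FPKM (limma adjusted p = 0.440).

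Tfr2 exceeded Tfrc 2.19-fold to 10.2-fold within a library. FPKM depends on the gene length used, and the whole-read steps show that the deposited values use the mean length of all annotated transcripts, short partial ones included. With the longest coding transcript as the length, a setting chosen after seeing the data, Tfr2 exceeded Tfrc 3.25-fold to 15.1-fold. The mean level of Tfrc was 45.4 with the first length and 16.6 with the second, since its mean transcript length is 1791 bases and its longest coding transcript 4890 bases.

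Steap3 (chromosome 1, 120190757 to 120272705, minus strand) encodes the endosomal ferric reductase that serves the transferrin cycle of red cell precursors. Its FPKM was 22.5, 9.73 and 19.4 in control and 24.0, 17.8, 20.0 and 18.9 in the Fth1-deleted group. It was the steadiest member in Fth1-deleted libraries, with a CV of 13.3%, and apart from control 2 its libraries lay close together. Steap3 differed by 0.29 on the log2 scale (SE 0.36; 95% interval -0.49 to 1.07; limma adjusted p = 0.808), and without control 2 it was -0.06. Of the other reductases and ferroxidases on the list, the relatives Steap1 and Steap2, the duodenal reductase gene Cybrd1 and the ferroxidase gene Hephl1 were at 0 in all 7 libraries. A count of 0 allows a level of up to 0.256, 0.0532, 0.0466 and 0.0473 FPKM for them, taking 3 reads in the shallowest library as the limit. Steap4, Cp and Heph were at 0 in control and had reads in 2, 1 and 2 Fth1-deleted libraries. Frrs1, a reductase related to cytochrome b561, was at 67.3 ± 7.59 and 62.6 ± 7.98 FPKM (limma adjusted p = 0.889).

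Slc11a2 (chromosome 15, 100387898 to 100425072, minus strand) encodes DMT1, which moves ferrous iron from the endosome to the cytosol. Its FPKM was 65.7, 31.1 and 20.1 in control and 24.5, 23.8, 38.3 and 29.0 in the Fth1-deleted group. Control 1 stood above the other 6 libraries, which overlapped between the groups. The log2 difference, at -0.28 (SE 0.38; 95% interval -1.10 to 0.54; limma adjusted p = 0.826), turned to 0.17 without control 1 and reached -0.65 without control 3. Slc11a2 shares 402 exon bases with Gm5475 on the other strand, which was listed at a mean of 0.00453 FPKM.

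Slc39a14 (chromosome 14, 70303469 to 70351425, minus strand), the gene of ZIP14, had the largest log2 difference of the 9 at 0.61 (SE 0.46; 95% interval -0.39 to 1.61; limma adjusted p = 0.695). Its FPKM was 11.7, 8.77 and 17.7 in control and 14.7, 32.6, 28.8 and 9.53 in the Fth1-deleted group. Fth1-deleted 2 and 3 lay above every control library, and Fth1-deleted 1 and 4 lay among the controls. The difference was 0.37 without Fth1-deleted 2 and 0.92 without Fth1-deleted 4. It was the only member whose CV was larger in Fth1-deleted than in control libraries, at 51.5% and 35.8%.

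Slc39a8 (chromosome 3, 135825279 to 135888572, plus strand), the gene of ZIP8, was the lowest member in every library, at 1.86, 3.81 and 0.902 FPKM in control and 1.56, 1.64, 3.70 and 2.11 in the Fth1-deleted group. High and low libraries occurred in both groups. These values stand for 37 to 195 reads, for which counting alone gives a CV of 9.69%, the largest among the members. Their log2 difference was 0.09 (SE 0.65; 95% interval -1.33 to 1.5; limma adjusted p = 0.975). The log2 ratio of Slc39a14 to Slc39a8 averaged 2.15 ± 1.14 over the controls and 2.68 ± 0.78 over the Fth1-deleted group (SD, n = 3 and 4; two-sided exact permutation p = 0.486, and 1 adjusted over 3 ratios), where the smallest p that 35 splits allow is 0.0286.

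Slc40a1 (chromosome 1, 45908068 to 45926523, minus strand) encodes ferroportin, the exporter that hepcidin removes from the cell surface. Its FPKM was 26.2, 6.69 and 14.2 in control and 43.6, 16.9, 15.5 and 14.9 in the Fth1-deleted group. Fth1-deleted 1 stood apart, and the other 3 Fth1-deleted libraries lay between control 3 and control 1. The groups differed by 0.54 on the log2 scale (SE 0.50; 95% interval -0.54 to 1.63; limma adjusted p = 0.74). It was 0.19 without Fth1-deleted 1, 0.08 without control 2 and 0.99 without control 1. Slc40a1 had the widest range of the members, 6.52-fold between the lowest and the highest library.

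Macrophages that recycle iron carry much ferroportin, so the macrophage marker list was read beside Slc40a1. Its 12 genes summed to 60.6, 43.6 and 22.9 FPKM in control 1 to 3 and to 178, 67.3, 99.6 and 78.9 in Fth1-deleted 1 to 4. The library with the highest Slc40a1 level thus had the highest sum, and the sums of the groups did not overlap. That was not particular to this list. Mast cell and basophil markers summed to 0 to 12.9 FPKM in control and 17.3 to 44.4 in Fth1-deleted libraries. Of the 12 macrophage markers, 10 were tested, 9 had a positive log2 difference and none passed, with a median difference of 1.36. C1qb, a complement gene with the smallest p of the list, was at 2.82 ± 3.32 and 20.5 ± 9.12 FPKM (limma adjusted p = 0.193). Its log2 difference was 2.84, where C1qa was at 0.19, Spic at 0.03 and Cd5l at -0.19. Marco was at 0 in all libraries, and Adgre1 (F4/80) and Timd4 were at 0 in control. Control 1 had the second highest Slc40a1 level with a sum below every Fth1-deleted library. The part of these genes in the Slc40a1 level was not tested.

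**Figure D2:**
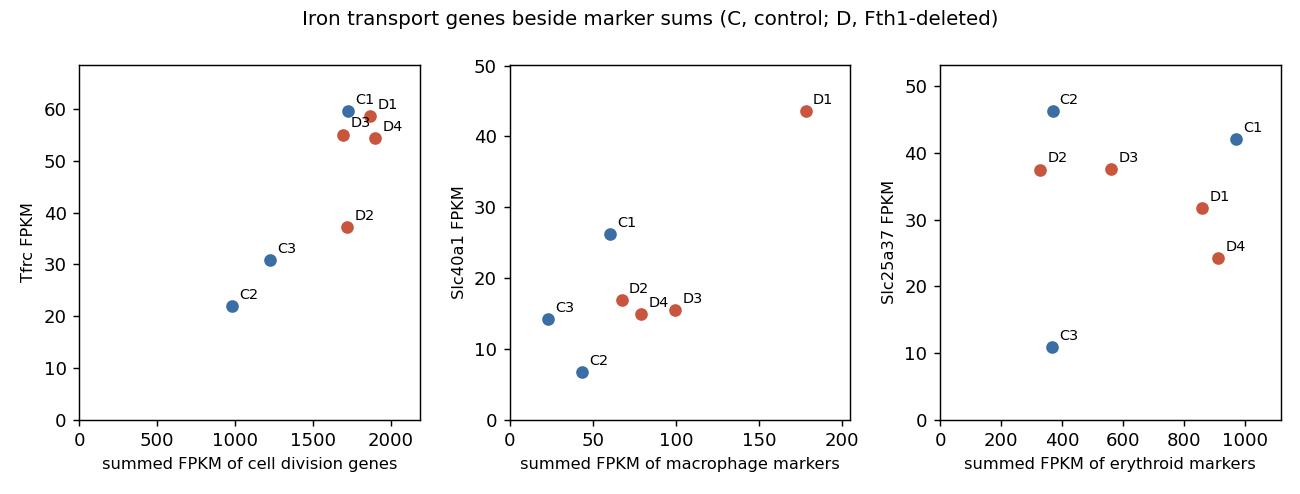
Level of Tfrc, Slc40a1 and Slc25a37 in FPKM (y axes) against the summed FPKM of the 16 cell division genes, 12 macrophage markers and 12 erythroid markers (x axes), 1 point per library (C, control; D, Fth1-deleted; digit, replicate). Fth1-deleted 1 is the highest library for both Slc40a1 and macrophage markers, control 2 is the lowest for both Tfrc and cell division genes, and the erythroid sums run from 328 to 971.

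Import and export did not separate between the groups as a ratio. The log2 ratio of Tfrc to Slc40a1 was 1.16, 1.58 and 1.07 in control and 0.42, 1.09, 1.76 and 1.80 in the Fth1-deleted group, with a mean of 1.27 in both (exact permutation p = 1, two-sided). Tfrc was higher than Slc40a1 in each of the 7 libraries, 1.35-fold to 3.65-fold, and so it was with the longest coding transcript as the length, 1.10-fold to 2.98-fold.

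Slc25a37 (chromosome 14, 69241848 to 69285112, minus strand) encodes mitoferrin 1, the mitochondrial importer that red cell precursors need for heme. Its FPKM was 42.1, 46.3 and 10.9 in control and 31.7, 37.5, 37.6 and 24.2 in the Fth1-deleted group. Control 3 was far below the other 6 libraries, while control 1 and 2 were above every Fth1-deleted library. Means were nearly equal at 33.1 ± 19.3 and 32.7 ± 6.35 FPKM, and the log2 difference had the opposite sign at 0.20 (SE 0.44; 95% interval as a fold 0.592 to 2.23; limma adjusted p = 0.9). Without control 3 it was -0.44 and without control 2 it was 0.55. Slc25a37 shares 381 exon bases with Gm31748 on the other strand, at a mean of 0.129 FPKM, and since the strand setting is not given, reads of the pair cannot be told apart there. The erythroid marker list summed to 971, 369 and 368 FPKM in control and 860.2, 328, 562 and 912 in the Fth1-deleted group. Of its 12 genes 11 were tested, 8 had a positive log2 difference and none passed. Its part in the level of Slc25a37 was not tested.

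Slc25a28 (chromosome 19, 43663801 to 43674881, minus strand) encodes mitoferrin 2, the form found in most tissues. Its FPKM was 42.7, 87.4 and 30.3 in control and 53.5, 68.6, 40.1 and 43.1 in the Fth1-deleted group. The highest and the lowest library were both controls. Its log2 difference was 0.05 (SE 0.34; 95% interval -0.70 to 0.80; limma adjusted p = 0.972), and it ran from -0.28 without control 3 to 0.47 without control 2. Mitoferrin 2 RNA was at a higher FPKM than mitoferrin 1 RNA in all 7 libraries, 1.02-fold to 2.77-fold, and 1.44-fold to 3.93-fold with the longest coding transcript as the length. With the union of exons the ratio ran from 0.853 to 2.32, so this order depends on the length in part of the libraries. The log2 ratio of Slc25a37 to Slc25a28 averaged -0.77 ± 0.69 over the controls and -0.62 ± 0.36 over the Fth1-deleted group (two-sided exact permutation p = 0.83, and 1 adjusted).

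**Figure D3:**
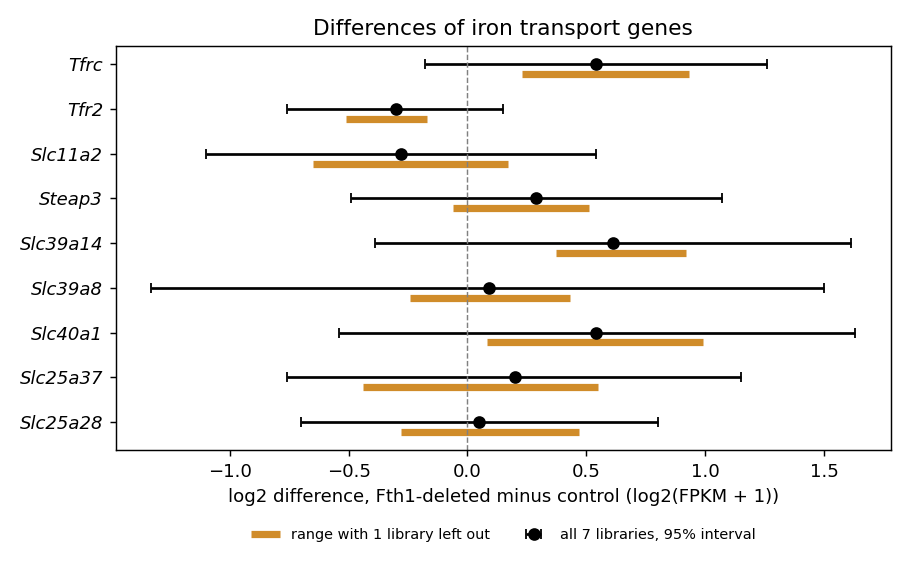
Log2 difference of each gene, Fth1-deleted minus control (x axis, log2(FPKM + 1) scale), with its 95% interval from limma (black, 3 control and 4 Fth1-deleted libraries) and the range of the difference with each library left out in turn (orange). Every 95% interval spans 0, and for Slc11a2, Steap3, Slc39a8, Slc25a37 and Slc25a28 the orange range does too.

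The order of the levels was headed by Tfr2 and closed by Slc39a8 in every library. Mean FPKM over the 7 libraries was 166 ± 35.9 for Tfr2, 52.2 ± 19.6 for Slc25a28, 45.4 ± 15.2 for Tfrc, 33.2 ± 15.5 for Slc11a2 and 32.9 ± 12 for Slc25a37. Below them were Slc40a1 at 19.7 ± 12, Steap3 at 18.9 ± 4.57, Slc39a14 at 17.7 ± 9.46 and Slc39a8 at 2.23 ± 1.11. Neighbours in this order did not differ beyond their spread except at its ends: Tfr2 was above Slc25a28 and Slc39a14 above Slc39a8 in 7 of 7 libraries, and the other neighbours held their order in 2 to 5 of 7. With either other gene length Tfr2, Slc25a28, Slc39a14 and Slc39a8 kept their ranks of 1, 2, 8 and 9, and Slc25a37 moved above Tfrc and Steap3 above Slc11a2 and Slc40a1. Slc39a14 was then above Slc39a8 in 6 of 7 libraries.

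**Figure D4:**
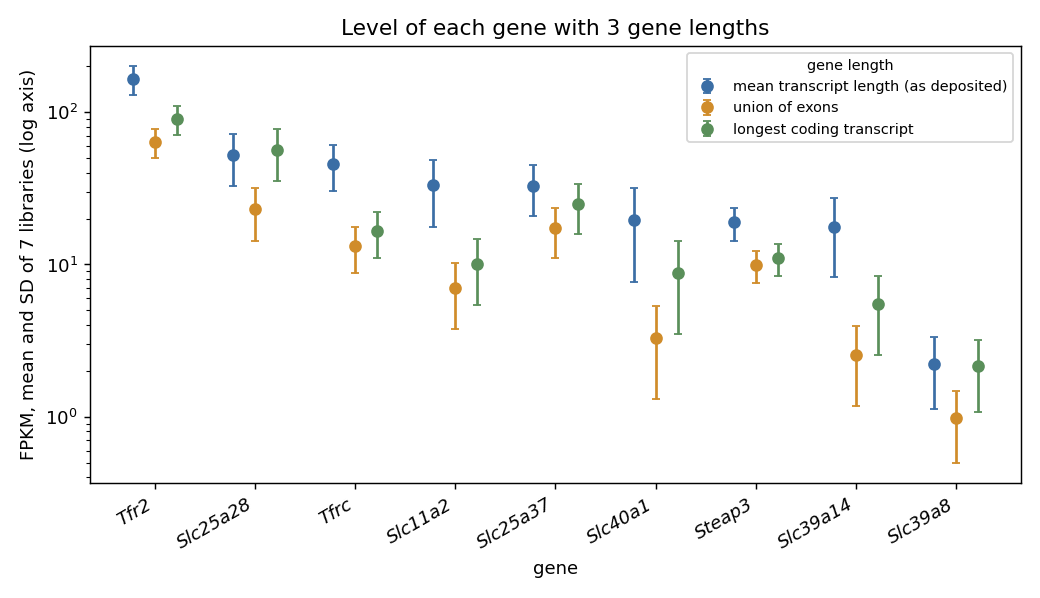
Level of each gene as FPKM (y axis, log scale), mean and SD of 7 libraries, with the gene length as deposited (blue), the union of exons (orange) and the longest coding transcript (green). Tfr2 is highest and Slc39a8 lowest with each of the 3 lengths, while Tfrc, Slc11a2, Slc40a1 and Slc39a14 drop the most when the length is changed.

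The members varied more among control than among Fth1-deleted libraries. The CV was larger in control for 8 of 9 members, with a median of 56.2% against 23.2%, where 57.6% of 13161 tested genes had the larger CV in control. Control 2 was the lowest of the 7 libraries for Tfrc, Steap3, Slc39a14 and Slc40a1 and the highest for Tfr2, Slc39a8, Slc25a37 and Slc25a28. That is 8 of 9 members at an extreme, where control 2 was at an extreme for 36.8% of all tested genes. Control 3 was the lowest library for Slc11a2, Slc39a8, Slc25a37 and Slc25a28. Control 2 differed from control 1 and 3 also in its ribosomal RNA and Y-linked reads (above). Of the controls, only control 2 had a ribosomal RNA share near that of the Fth1-deleted libraries (1.05% against 1.19% to 1.36%). A fit with that share as a covariate therefore compares the Fth1-deleted group largely with control 2 alone. With ribosomal RNA as a covariate, the log2 differences of Tfrc, Steap3 and Slc40a1 were 1.40, 1.23 and 1.93 and still missed the threshold (limma adjusted p = 0.276, 0.359 and 0.315). Tfr2 was at -0.68 (limma adjusted p = 0.44), Slc39a14 at 1.03 (0.63) and Slc11a2 at -0.15 (0.933) in the same fit. Those of Slc25a37, Slc25a28 and Slc39a8 turned to -0.81, -1.05 and -0.92 in that fit, and to -0.13, -0.26 and -0.13 with a term for Y-linked reads. That term gave -0.48 for Tfr2 (limma adjusted p = 0.374). Libraries without Y-linked reads were 2 controls and 1 Fth1-deleted, and those with them 1 control and 3 Fth1-deleted, too few for a test within either.

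**Figure D5:**
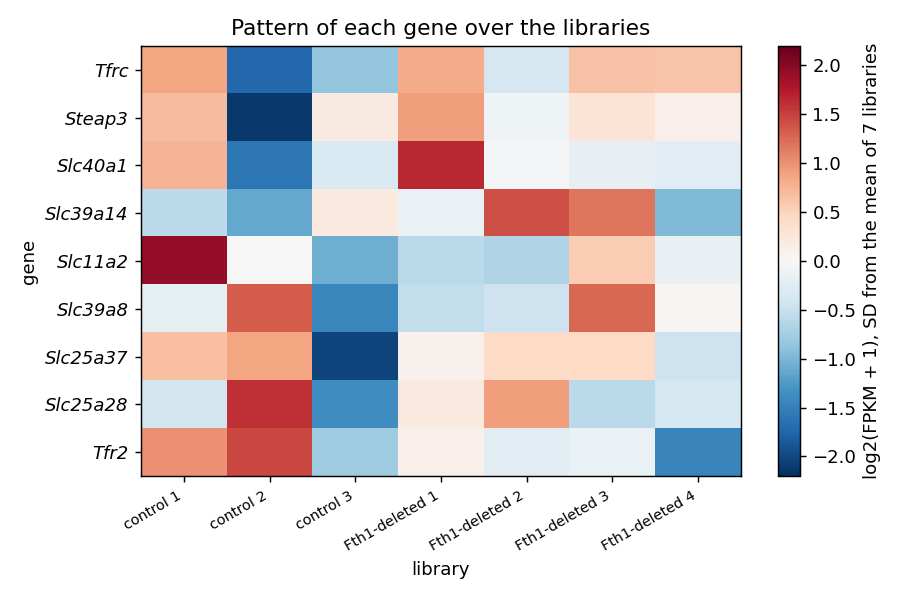
Level of each gene (rows) in each library (columns), as log2(FPKM + 1) in SD from the mean of the 7 libraries, red above and blue below. Control 2 is blue for Tfrc, Steap3, Slc40a1 and Slc39a14 and red for Slc39a8, Slc25a37, Slc25a28 and Tfr2.

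Some of the members shared patterns that crossed the groups. As a description, likeness was taken as the mean absolute difference of standardized log2(FPKM + 1) over the 7 libraries, which share their depth and makeup between genes. Among the members the closest pairs were Steap3 and Slc40a1 at 0.391 SD, Tfrc and Steap3 at 0.405 and Tfrc and Slc40a1 at 0.518, followed by the 2 mitoferrins at 0.603. Slc39a14 had no close partner among the members, the nearest being Steap3 at 0.978 SD. The median distance of a member to the 9484 genes compared was 1.03 to 1.09 SD. The 3 genes most like Tfrc were Map2k6, Myl12a and Taf15 at 0.114 to 0.145 SD, those most like Tfr2 were Copg1, Rrm2b and Firre at 0.126 to 0.181, and those most like Steap3 were Trir, Cenpm and Gps1 at 0.133 to 0.142. Slc40a1 was followed by Ide, Nol9 and Nelfe at 0.198 to 0.221 SD, Slc25a37 by Srsf6, Nr2c2 and Prkab2 at 0.0967 to 0.111, and Slc25a28 by Cog3, Trim30a and Akap1 at 0.181 to 0.205. Slc39a8 had the closest partners, Naf1, Ccdc6 and Mapk9 at 0.0477 to 0.142 SD, Slc11a2 was followed by Tubgcp5, Pprc1 and Rit1 at 0.141 to 0.262, and Slc39a14 by Kpna4, Otos and Mir6999 at 0.158 to 0.186.

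Other genes of iron handling were counted by list, 64 genes in 7 lists, of which 46 were tested. None rose, none fell, 21 had a positive and 25 a negative log2 difference. Among ferritins and iron sensors, Fth1, the deleted gene, was at 616 ± 56.5 and 252 ± 114 FPKM (limma adjusted p = 0.193). The light chain Ftl1 was at 177 ± 23.2 and 331 ± 75.2 (limma adjusted p = 0.219). Neither overlapped between the groups, which held for 2 of the 6 genes tested on this list and for 9.65% of all tested genes. Both carry the element shown above. Tfrc and Slc40a1, the members with one, overlapped between the groups, and so did Slc11a2, which matched only under the looser rule. The members without a match overlapped as well. The part of the element in these levels was not tested.

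Of the 9 genes for transferrin, hepcidin and their control, 4 were at 0 throughout. Hamp (hepcidin), Bmp6, Tmprss6 and Hfe2 were at 0 in all libraries, which allows up to 0.607, 0.154, 0.155 and 0.123 FPKM, and Trf (transferrin) was at 0 in control and 0.503 ± 0.869 in Fth1-deleted libraries. Of the 9 genes 3 were tested and none passed. Neo1, the gene of a hemojuvelin receptor, was at 13.1 ± 9.82 and 4.47 ± 1.6 FPKM (limma adjusted p = 0.589), and B2m, the partner of HFE and of MHC class I, at 1751 ± 411 and 1421 ± 184 (limma adjusted p = 0.662).

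Routes for heme and other iron carriers were measured in the same way. Of 8 genes of heme and mitochondrial export 6 were tested and none passed. Abcg2, an efflux pump known from stem cells that also exports porphyrins, was at 68.8 ± 4.61 and 44.7 ± 5.98 FPKM (limma adjusted p = 0.400). It was the 1 gene of these 6 without overlap between the groups, where 9.65% of all tested genes had none. The heme exporter gene Flvcr1 was at 10.3 ± 5.68 and 7.69 ± 3.30 (limma adjusted p = 0.841). Of 8 uptake genes for ferritin, lipocalin and heme 6 were tested and none passed. The lipocalin receptor gene Slc22a17 was at 26.1 ± 18.1 and 10.8 ± 4.09 (limma adjusted p = 0.647), and Lcn2, lipocalin 2, was at 0 in control and 2.01 ± 2.46 in Fth1-deleted libraries (limma adjusted p = 0.701).

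All 14 genes listed for sorting, loading and turnover of the transporters or their RNA were tested. Of these, 5 had a positive and 9 a negative log2 difference, and none passed. Vps35, a part of the retromer that recycles DMT1 and transferrin receptor, was at 49.8 ± 10.9 and 70.2 ± 15.1 FPKM (limma adjusted p = 0.569). Nedd4l, a ubiquitin ligase, was at 10.3 ± 1.71 and 6.12 ± 4.63 (limma adjusted p = 0.655). The 10 other mitochondrial carriers set beside the mitoferrins had a median log2 difference of 0.10 and none passed. The ADP/ATP carrier Slc25a5 was at 429.5 ± 118 and 568 ± 87.9 (limma adjusted p = 0.543). The NAD carrier Slc25a51 was at 81.8 ± 10.6 and 62.7 ± 5.53 (limma adjusted p = 0.588). Slc25a51 was the 1 carrier of these 10 without overlap between the groups, where 9.65% of all tested genes had none.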

How the data were processed

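PolyA RNA of 7 HSC libraries (3 control, 4 Fth1-deleted) was made into libraries with an NEBNext Ultra RNA kit, per the labels' protocols. Per the series text, reads were aligned to GRCm38 with HISAT2 2.0.4, counted per gene with HTSeq 0.9.1 and converted by the authors to the deposited FPKM, with no scaling between libraries stated. Annotation release and strand setting are not given in the sources used here. Identifiers were matched to GENCODE mouse M21 (55480 of 55855). FPKM times mean transcript length gave whole reads (within 0.05) for 98.8% to 99.4% of values under 50 reads. The CVs given for counting alone cover counting error only.

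Genes averaging 1 FPKM or more were tested as log2(FPKM + 1) with limma 3.58.1 (R 4.3.3, trend, no covariate, two-sided), adjusted over all tested genes by Benjamini-Hochberg at 0.05, so a fold change of a low gene is understated. The 3 ratios were tested by exact permutation. Members are all named, with Fth1, up to 2 genes of each iron or marker list by smallest p and the 3 nearest patterns of each member. A marker gene that this rule names is not reported here. Members, lists and alternatives were chosen with earlier results of these data known. Transcripts were compared by BLAST+ 2.17.0. Slc25a37 shares 381 exon bases with Gm31748 and Slc11a2 402 with Gm5475, both on the other strand and at 0.129 and 0.00453 FPKM. Slc25a37 also shares 92 exon bases with Gm27223, at 0 FPKM, and has stretches of 382, 381 and 381 bases that are identical to Gm16867, Gm31748 and Gm37847, so its reads are uncertain there.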

Additional observations from a re-analysis of the deposited data

Results flagged for a closer look

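A sample far from the others was looked for in the 4 Fth1-deleted libraries with Dixon's test, over 9 genes and 3 ratios, and 2 of these 12 were found; chance flags about 1 in 20 such groups. Slc40a1 was at 43.6 FPKM in Fth1-deleted 1, and its gap to the next library took 0.931 of the range, above the critical value for 4 samples. The same library had the highest sum of macrophage markers, at 178 FPKM, whose part was not tested. The log2 ratio of Slc25a37 to Slc25a28 was -0.09 in Fth1-deleted 3, with a gap of 0.844 of the range.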

How the results depend on the processing

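The call of 0 members held in each of the 20 alternatives to the fit, with adjusted p of 0.276 or more. Of 179 values of the members, 164 kept their direction and 15 turned it; Tfrc, Tfr2, Slc39a14 and Slc40a1 kept theirs in all that were run. Direction turned for Slc25a28 with TPM (-0.02), the ribosomal RNA covariate (-1.05) and the Y-linked term (-0.26), for Slc25a37 with these 2 terms (-0.81 and -0.13) and for Slc39a8 with them (-0.92 and -0.13). With 1 library left out the ranges were -0.65 to 0.17 for Slc11a2, -0.06 to 0.51 for Steap3, -0.24 to 0.43 for Slc39a8, -0.44 to 0.55 for Slc25a37 and -0.28 to 0.47 for Slc25a28. Ratio differences ranged from -0.18 to 0.28 for Tfrc to Slc40a1 (0.00 in all libraries, -0.02 with pseudocount 0.1), from -0.04 to 1.10 for Slc39a14 to Slc39a8 and from -0.16 to 0.52 for Slc25a37 to Slc25a28. The causes were not tested, and the fit with the ribosomal RNA covariate rests largely on control 2 as the control (above). Genes called numbered 8 in all, 0 with no filter, 17 without a trend, 5 with limma-voom on recovered reads, 28 with the ribosomal RNA covariate, 17 with the Y-linked term, and 0 to 4 with 1 library left out (4 without control 2, 0 without each other library). Of the other iron genes 0 were called, and 1 with the Y-linked term (Fth1). The replicate block gave 0 calls. Same-numbered libraries had deviations correlated at 0.009, 0.0609 and -0.037. Such correlations cannot settle whether these libraries share a litter or day, and no label gives a pairing. Depth limits Slc39a8 most, at 37 to 195 reads; it was not tested with a filter at 5 FPKM.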
